A study of Homo sapiens with 6 samples.

Results

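The genes described here make, sense, move, store and export cholesterol. They are 30 named genes for sterol synthesis, its control by the transcription factor SREBP2, intracellular transport, and the efflux and uptake control linked to the liver X receptors (LXRs), taken by symbol from a table of 22701 genes. All 30 were in the table, and 28 had a mean of at least 1 FPKM (fragments scaled for gene length and library size) over the 6 libraries and were tested among 10695 such genes. Polyadenylated RNA was sequenced from LX-2 cells, an immortalised line of human hepatic stellate cells, the matrix-producing cells of the scarred liver. In 3 libraries the cells had received 20 µM LIG (ligustilide, a phthalide of Ligusticum roots) together with TGF-β, the cytokine that activates stellate cells. In 3 others they had received TGF-β without LIG, and both groups had TGF-β at 5 µg/mL as the labels state it. The labels do not say whether replicates were separate cultures, so p-values measure the spread between these samples only, which may be technical.

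Cells build cholesterol from acetyl-CoA through mevalonate, farnesyl diphosphate, squalene and lanosterol. When sterol in the endoplasmic reticulum is low, the escort protein SCAP carries SREBP2 to the Golgi, where it is cut and released to switch on the genes of this pathway; when sterol is high, INSIG proteins hold SCAP back. Oxysterols formed from excess cholesterol activate the LXRs, which switch on the exporters ABCA1 and ABCG1 and the ubiquitin ligase MYLIP.

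HMGCS1, the HMG-CoA synthase at the entry to the mevalonate pathway, was the single member that passed the test over all genes, and it fell with LIG. Of the 21 members known as SREBP2 targets, 1 passed as lower and 0 as higher, against a background of 0.505% of all tested genes lower and 0.187% higher. The log2 change (LIG minus TGF-β, on log2(FPKM + 1)) was below 0 in 18 of the 21, or 85.7%, against 39.1% of all tested genes, and its median was -0.15, against 0.03. In 9 of the 21 all 3 LIG libraries lay below all 3 TGF-β libraries, against 6.73% of all tested genes, and in 0 of the 21 they lay above, against 9.07%. Of the 4 LXR-linked members, 2 could be tested and 0 passed, and of the 5 other members 0 passed, against 0.692% of all tested genes in either direction. At an unadjusted p under 0.05, 7 of the 21 were lower and 0 higher, against 4.21% and 4.2% of all tested genes. Over all 28 tested members 20 (71.4%) had a change below 0, with a median of -0.13. Of the 5 other members 1 had a change below 0 and 4 above. The members and their lists were chosen with earlier results of these data known, so these shares are not an independent test. They describe the members, and the genes share regulators and are not independent of each other.

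The libraries held 38401783 to 39260090 fragments, and the median tested gene had 1485 fragments per library. The summed level of 13 measured stellate and mesenchymal markers was 3052 to 3466 FPKM with LIG and 3405 to 3609 FPKM with TGF-β, of which VIM made 1747 to 2091 FPKM with LIG and 1737 to 1971 FPKM with TGF-β. DES and RGS5 of that list were under 1 FPKM in each library. COL3A1 (9.96 ± 1.598 FPKM with LIG and 20.3 ± 2.41 FPKM with TGF-β) and SPARC (368 ± 13.9 FPKM with LIG and 507 ± 2.89 FPKM with TGF-β) passed as lower. Of the 11 tested markers of the list, 7 had a change below 0 and 4 above, against 39.1% of all tested genes below 0. Without overlap 5 were lower, against 6.73% of all tested genes, and 1, TIMP1, was higher, against 9.07%. TIMP1 averaged 152 ± 22.6 FPKM with LIG and 126 ± 8.94 FPKM with TGF-β (log2 change 0.27, limma adjusted p = 0.563). COL1A2 had the largest change above 0 (log2 change 0.77, limma adjusted p = 0.802). It was at 5.08, 3.28 and 3.24 FPKM with LIG, against 0.675, 0.708 and 6.725 FPKM with TGF-β. ACTA2 had a change of 0.09, and its groups overlapped. The part of these markers' changes in the sterol genes was not tested. HNF4A and PTPRC, which mark hepatocytes and leukocytes, were listed at or near 0, at most 0.0160 FPKM. Summed levels of the other marker lists were 3.31 to 4.89 FPKM with LIG and 3.54 to 4.07 FPKM with TGF-β for hepatocytes (nearly all SERPINA1), 11.2 to 11.9 FPKM with LIG and 13.6 to 13.9 FPKM with TGF-β for cholangiocytes (mostly SOX9), 0.135 to 0.213 FPKM with LIG and 0.187 to 0.325 FPKM with TGF-β for endothelium and 14.0 to 15.6 FPKM with LIG and 12.9 to 14.96 FPKM with TGF-β for immune cells (nearly all CD68). The cholangiocyte sum was lower in every LIG library, and its part in the sterol genes was not tested. In bulk RNA, fewer cells that make a transcript and less of it per cell cannot be told apart.

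Promoters are shown for 6 of the 7 members with the smallest adjusted p (of SQLE, the second of them, no sequence is shown), to set side by side those with and without a box found in most of the SREBP2-driven group. In RefSeq promoter windows of GRCh38.p14, from 250 bases before to 50 after a start site, 18 of the 21 SREBP2-driven members had a sequence, and 16 of them (88.9%) contained CCAAT on either strand in at least 1 of their windows. CCAAT is the box of NF-Y, a known partner of SREBP2, and it was in 39.7% of the 27305 genes of the promoter table and in 3 of the 8 other members with a sequence, MYLIP, NPC2 and SOAT1. The GC box GGGCGG was in 17 of the 18 and in 8 of the 8, against 48.3% of all genes. One form of the sterol regulatory element, TCACNCCAC, was in 1 of the 18, SREBF2 itself, against 1.4% of all genes. Other forms of this element were not searched, so absence of TCACNCCAC does not show that a member lacks the element. A single strict form of the DR4 repeat bound by LXRs was searched, and it was in no member and in 0.1% of all genes. Looser forms, such as a near match in the ABCA1 stretch printed here, were not counted. Absence of the strict form therefore does not show that a member lacks a DR4 repeat. All motifs were searched on both strands, and a match is a run of letters, not a measured site. The promoter table also holds genes that were not tested here, and shares among the tested genes alone were not computed. How far the members differ from other expressed genes is therefore not shown. In the promoters printed here no match overlapped that of another motif. Capitals mark CCAAT (or ATTGG, its reverse complement) and TCACNCCAC in the printed stretches. The stretches run 5′ to 3′ from base -200 to base -51 relative to a RefSeq start. They belong to HMGCS1 (chr5:43313463-43313612, minus strand), STARD4 (chr5:111512586-111512735, minus strand), LSS (chr21:46228825-46228974, minus strand), INSIG1 (chr7:155297678-155297827, plus strand), MSMO1 (chr4:165327469-165327618, plus strand), CYP51A1 (chr7:92134528-92134677, minus strand), SREBF2 (chr22:41832905-41833054, plus strand) and ABCA1 (chr9:104928206-104928355, minus strand). SREBF2 was added after its match was seen, and ABCA1 stands for the efflux genes.
HMGCS1: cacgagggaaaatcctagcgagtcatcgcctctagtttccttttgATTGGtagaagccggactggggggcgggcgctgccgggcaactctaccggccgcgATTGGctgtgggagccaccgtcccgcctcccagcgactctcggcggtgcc
STARD4: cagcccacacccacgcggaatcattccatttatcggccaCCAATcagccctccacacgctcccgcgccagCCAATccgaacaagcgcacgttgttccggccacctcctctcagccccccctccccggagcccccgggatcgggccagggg
LSS: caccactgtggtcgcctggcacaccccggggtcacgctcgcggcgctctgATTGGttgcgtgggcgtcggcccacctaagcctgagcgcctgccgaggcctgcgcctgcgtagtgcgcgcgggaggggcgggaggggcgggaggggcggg
INSIG1: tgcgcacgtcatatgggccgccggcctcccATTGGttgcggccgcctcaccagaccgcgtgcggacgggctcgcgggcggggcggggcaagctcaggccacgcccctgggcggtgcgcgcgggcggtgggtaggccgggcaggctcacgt
MSMO1: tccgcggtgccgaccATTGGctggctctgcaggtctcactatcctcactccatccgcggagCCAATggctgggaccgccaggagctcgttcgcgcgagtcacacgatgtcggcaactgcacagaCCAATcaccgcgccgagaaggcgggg
CYP51A1: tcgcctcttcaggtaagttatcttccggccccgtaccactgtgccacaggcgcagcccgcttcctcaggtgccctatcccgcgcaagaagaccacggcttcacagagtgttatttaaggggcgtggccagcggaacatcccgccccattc
SREBF2: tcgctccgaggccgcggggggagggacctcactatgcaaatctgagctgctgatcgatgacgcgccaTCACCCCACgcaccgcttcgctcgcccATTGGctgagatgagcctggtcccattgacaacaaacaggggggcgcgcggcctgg
ABCA1: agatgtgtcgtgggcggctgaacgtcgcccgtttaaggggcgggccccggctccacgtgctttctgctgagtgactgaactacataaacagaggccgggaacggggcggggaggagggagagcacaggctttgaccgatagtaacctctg
MSMO1 held 3 CCAAT boxes in this stretch and HMGCS1 and STARD4 held 2 each. LSS, INSIG1 and SREBF2 held 1 each, and CYP51A1 and ABCA1 held 0 here and in the rest of their windows. Another RefSeq window of HMGCS1 (chr5:43313132-43313431), not printed, held GGGCGG and no CCAAT.

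The first enzymes turn acetyl-CoA into activated isoprenoids. HMGCS1 (chr5:43289395-43313512, minus strand, GENCODE release 29 on GRCh38, which also gives the gene positions that follow) was at 68.5, 64.6 and 64.5 FPKM with LIG, against 88.8, 92.9 and 90.5 FPKM with TGF-β. The groups were well apart and the libraries within each group close together. The mean was 65.9 ± 2.31 FPKM with LIG and 90.8 ± 2.07 FPKM with TGF-β (SD, n = 3 each), 0.726 times the TGF-β level (log2 change -0.46 ± 0.06 SE, 95% interval -0.60 to -0.31, limma adjusted p = 0.0199). It rested on 16008 to 23412 fragments per library. The change stayed between -0.48 and -0.43 under the 20 alternatives. The call was lost without LIG replicate 1 (adjusted p = 0.0782), LIG replicate 2 (0.142), TGF-β replicate 1 (0.136), TGF-β replicate 2 (0.0850) or TGF-β replicate 3 (0.178), with no filter on low genes (0.0608), and under 1 other of the 20 alternatives, given with the dependence on processing.

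The other mevalonate enzymes had smaller changes, and none passed. ACAT2, the thiolase that makes acetoacetyl-CoA, was at 68.1, 64.5 and 80.6 FPKM with LIG, against 76.2, 91.0 and 79.6 FPKM with TGF-β. LIG replicate 3 lay among the TGF-β values (log2 change -0.21, adjusted p = 0.657). IDI1, which isomerises isopentenyl diphosphate, was at 20.1, 19.8 and 22.2 FPKM with LIG, against 21.6, 24.9 and 23.3 FPKM with TGF-β, with 1 LIG library among the TGF-β values (log2 change -0.16, adjusted p = 0.634). MVK, mevalonate kinase, averaged 5.42 ± 0.389 FPKM with LIG and 6.09 ± 0.155 FPKM with TGF-β (SD, n = 3 each, as for the means below), and its groups did not overlap (log2 change -0.15, adjusted p = 0.647). MVD, mevalonate diphosphate decarboxylase, averaged 11.9 ± 1.87 FPKM with LIG and 13 ± 0.919 FPKM with TGF-β (log2 change -0.13, adjusted p = 0.851). FDPS, which makes farnesyl diphosphate, averaged 62.7 ± 6.27 FPKM with LIG and 68.7 ± 5.75 FPKM with TGF-β (log2 change -0.13, adjusted p = 0.814). Both of these genes had overlapping groups. So did PMVK, phosphomevalonate kinase, the mevalonate enzyme with the lowest level, at 3.84 ± 0.617 FPKM with LIG and 3.76 ± 0.746 FPKM with TGF-β (log2 change 0.03, adjusted p = 0.987).

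The 3 enzymes from farnesyl diphosphate to lanosterol each had a change below 0, and none passed. SQLE, squalene epoxidase, a rate-limiting enzyme of sterol synthesis (chr8:124998497-125022283, plus strand), was at 49.6, 48.1 and 47.9 FPKM with LIG, against 58.7, 63.3 and 59.6 FPKM with TGF-β. All 3 LIG libraries were lower, by more than the range within either group, and the difference missed the threshold (log2 change -0.31 ± 0.06 SE, 95% interval -0.45 to -0.17, limma adjusted p = 0.0928). LSS, lanosterol synthase (chr21:46188141-46228824, minus strand), was at 8.45, 8.33 and 8.36 FPKM with LIG, against 10.2, 9.68 and 9.88 FPKM with TGF-β. The 3 LIG libraries were nearly equal and lay below the TGF-β libraries (log2 change -0.22 ± 0.06 SE, 95% interval -0.35 to -0.08, limma adjusted p = 0.264). FDFT1, squalene synthase, was at 22.1, 22.2 and 23.6 FPKM with LIG, against 23.5, 27.1 and 24.95 FPKM with TGF-β (log2 change -0.15, adjusted p = 0.647), and 1 LIG library exceeded the lowest TGF-β library by a narrow margin. Intervals are those of single genes, not adjusted for the number of genes.

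**Figure D1:**
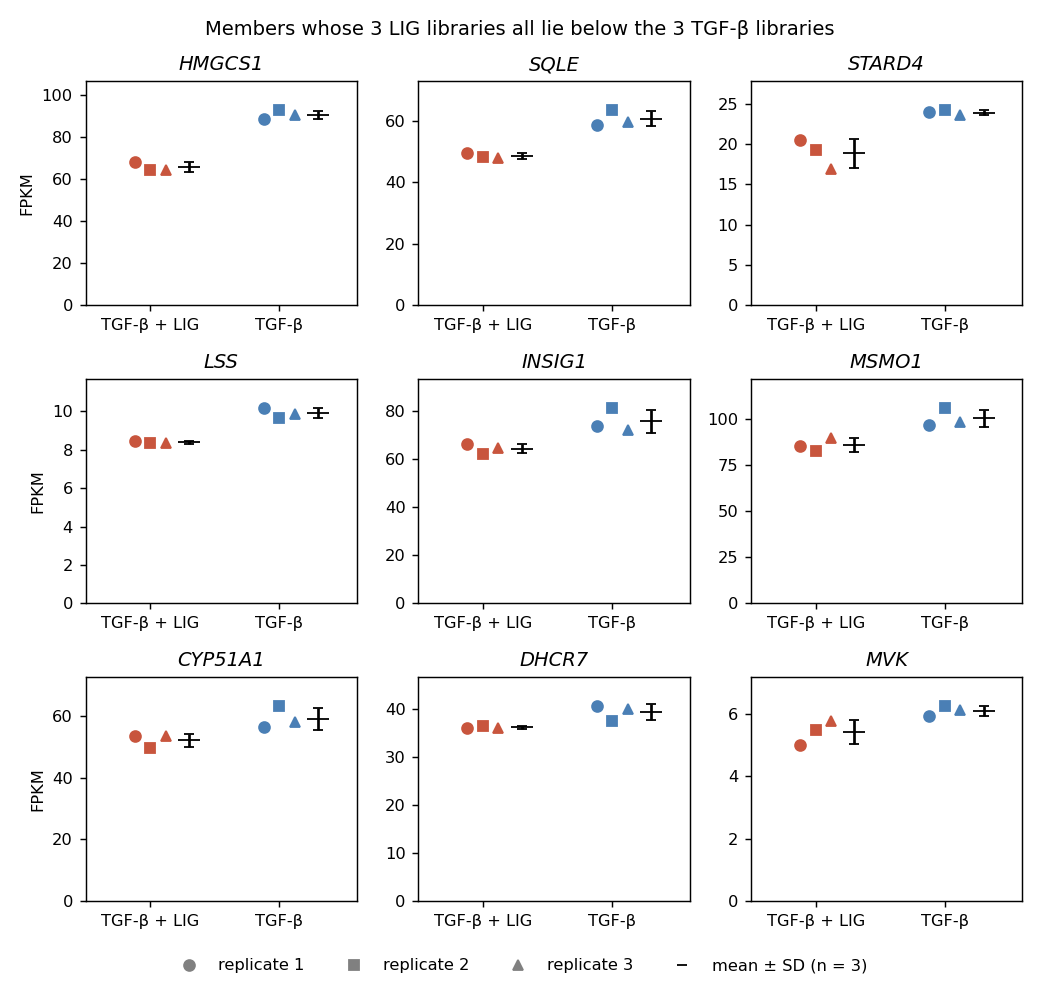
FPKM of the 9 members whose 3 LIG libraries all lay below the 3 TGF-β libraries, with TGF-β + LIG left of TGF-β in each panel; symbols are replicates 1 to 3 and bars are mean ± SD (n = 3). HMGCS1, at 65.9 FPKM with LIG and 90.8 FPKM with TGF-β, passed over all genes, and the other 8 did not.

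Of the 8 enzymes from lanosterol to cholesterol, 3 were lower with groups that did not overlap, against 6.73% of all tested genes, and none passed. MSMO1, the methylsterol oxidase (chr4:165327623-165343160, plus strand), was at 85.5, 82.8 and 90.1 FPKM with LIG, against 97.1, 106 and 98.4 FPKM with TGF-β. Each LIG library was lower (log2 change -0.22 ± 0.07 SE, 95% interval -0.38 to -0.06, limma adjusted p = 0.354). CYP51A1, lanosterol demethylase, was at 53.3, 49.6 and 53.3 FPKM with LIG, against 56.2, 63.0 and 57.9 FPKM with TGF-β (log2 change -0.18, adjusted p = 0.523). DHCR7, a reductase of the last steps, was at 36.1, 36.6 and 36.0 FPKM with LIG, against 40.6, 37.6 and 40.04 FPKM with TGF-β (log2 change -0.12, adjusted p = 0.679). In both, all LIG libraries were lower, by less than 2 FPKM at the closest pair in DHCR7. HSD17B7, EBP and SC5D had changes of -0.07, -0.05 and -0.02, and NSDHL and TM7SF2 changes of 0.03 and 0.05, all with overlapping groups and adjusted p between 0.945 and 0.979. Summed over the 18 synthesis enzymes among the members, the level was 553, 541 and 595 FPKM with LIG, against 623, 690.3 and 641 FPKM with TGF-β. Without HMGCS1 it was 484, 477 and 531 FPKM with LIG, against 534, 597 and 551 FPKM with TGF-β. Both sums were lower in every LIG library than in any TGF-β library.

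Neither SREBF2 nor the 3 members that control SREBP2 passed. INSIG1, the brake on SCAP that SREBP2 itself induces (chr7:155297776-155310235, plus strand), was at 66.1, 62.2 and 64.5 FPKM with LIG, against 73.7, 81.1 and 72.0 FPKM with TGF-β. Its groups did not overlap (log2 change -0.23 ± 0.07 SE, 95% interval -0.39 to -0.07, limma adjusted p = 0.337). SREBF2, the gene of SREBP2, was at 18.1, 19.0 and 15.9 FPKM with LIG, against 20.6, 18.1 and 20.9 FPKM with TGF-β (log2 change -0.16, adjusted p = 0.706). Here 1 TGF-β library, replicate 2, lay among the LIG values. INSIG2, the second brake, was at 6.79, 6.27 and 7.17 FPKM with LIG, against 6.66, 7.67 and 7.61 FPKM with TGF-β (log2 change -0.10, adjusted p = 0.834), and SCAP averaged 12.7 ± 0.288 FPKM with LIG and 11.6 ± 1.51 FPKM with TGF-β (log2 change 0.13, adjusted p = 0.808); both had overlapping groups.

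STARD4, a soluble carrier of cholesterol between membranes and an SREBP2 target (chr5:111496033-111512590, minus strand), was at 20.4, 19.3 and 16.9 FPKM with LIG, against 23.9, 24.2 and 23.6 FPKM with TGF-β. The TGF-β libraries were nearly equal and each LIG library was lower, replicate 3 most, yet the difference did not pass (log2 change -0.33 ± 0.08 SE, 95% interval -0.51 to -0.15, limma adjusted p = 0.184). The members that release cholesterol from lysosomes or store it had changes above 0 and overlapping groups. NPC1, the lysosomal exporter, was at 16.3, 16.3 and 13.9 FPKM with LIG, against 14.6, 12.7 and 14.7 FPKM with TGF-β (log2 change 0.14, adjusted p = 0.776). NPC2, its soluble partner, averaged 68.3 ± 8.33 FPKM with LIG and 66.3 ± 6.55 FPKM with TGF-β (log2 change 0.04, adjusted p = 0.979). SOAT1, which esterifies cholesterol for storage, was at 8.26, 7.63 and 7.83 FPKM with LIG, against 7.77, 7.94 and 7.05 FPKM with TGF-β (log2 change 0.05, adjusted p = 0.936).

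**Figure D2:**
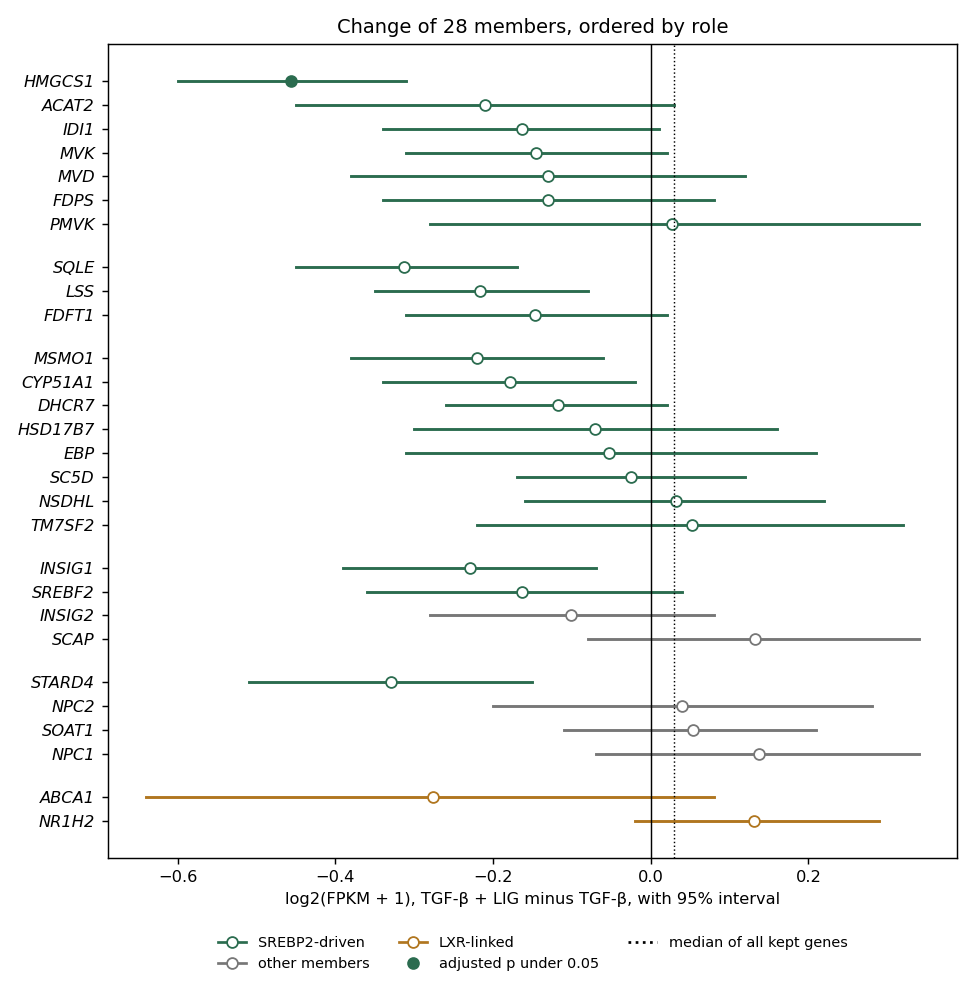
Change of the 28 tested members on the log2(FPKM + 1) scale, TGF-β + LIG minus TGF-β, with 95% intervals of single genes, ordered by role; the filled point passed over all genes and the dotted line is the median of all tested genes, 0.03. Of the 21 SREBP2-driven members (green), 18 lie below 0, HMGCS1 lowest at -0.46, and the 2 LXR-linked members lie on either side of 0.

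The LXR-linked genes did not separate the groups or were too low to test. ABCA1, which loads cholesterol onto apolipoproteins (chr9:104781002-104928237, minus strand), was at 3.64, 3.27 and 2.13 FPKM with LIG, against 4.23, 3.12 and 4.10 FPKM with TGF-β. LIG replicate 3 was the lowest of the 6 libraries and TGF-β replicate 2 the next. The difference did not pass (log2 change -0.28 ± 0.16 SE, 95% interval -0.64 to 0.08, limma adjusted p = 0.740). The change was -0.11 without LIG replicate 3, -0.39 without TGF-β replicate 2 and -0.22 without both. These bounds, -0.39 and -0.11, were also those over all alternatives run for this gene. NR1H2, which encodes LXRβ (chr19:50329653-50382982, plus strand), was at 20.5, 20.9 and 22.4 FPKM with LIG, against 18.5, 20.5 and 19.0 FPKM with TGF-β. The lowest LIG library and the highest TGF-β library were nearly equal (log2 change 0.13 ± 0.07 SE, 95% interval -0.02 to 0.29, limma adjusted p = 0.691). MYLIP, which marks lipoprotein receptors for degradation, was at 0.666 to 0.713 FPKM with LIG and 0.579 to 0.862 FPKM with TGF-β, on 72 to 108 fragments per library. ABCG1, which exports cholesterol to high-density lipoprotein, was at 0.0399 to 0.0541 FPKM with LIG and 0.0357 to 0.0384 FPKM with TGF-β, on 16 to 24 fragments per library. Both were below the filter and have no test. Of the 2 LXR-linked members tested with limma, 0 passed, 0 had an unadjusted p under 0.05, and limma voom on recovered fragments called 0.

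**Figure D3:**
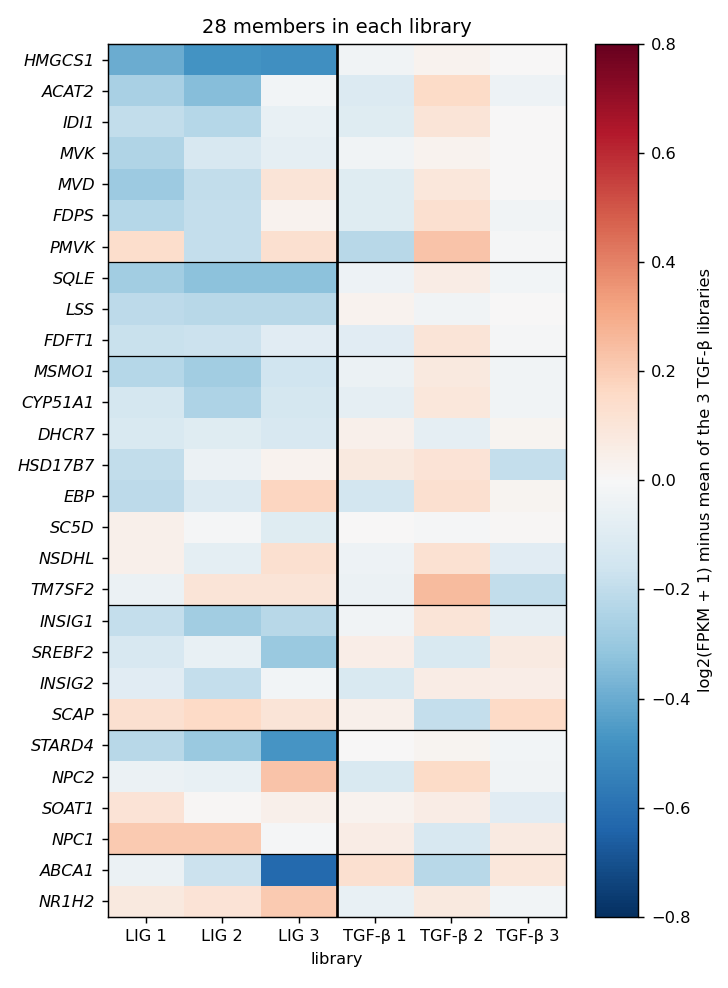
Level of the 28 tested members in each library as log2(FPKM + 1) minus the mean of the 3 TGF-β libraries, LIG libraries left of the vertical line, genes ordered by role as in the plot of changes. HMGCS1, SQLE and STARD4 are below 0 in all 3 LIG libraries, and ABCA1 reaches -0.62 in LIG replicate 3.

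LIG replicate 3 and TGF-β replicate 2 stood apart from the other 4 libraries on the first principal component, which held 55.1% of the variance, and both differed from their groups by gene length. Lengths were recovered from the FPKM values. Against the other 2 libraries of its group, LIG replicate 3 differed by a median of 0.246 (log2) in the shortest 25% of tested genes and -0.185 in the longest. TGF-β replicate 2 differed by 0.159 in the shortest and -0.09 in the longest. EBP, at 1125 bases the shortest tested member, differed by 0.33 in LIG replicate 3 and 0.19 in TGF-β replicate 2. ABCA1, at 10408 bases the longest, differed by -0.51 in LIG replicate 3 and -0.33 in TGF-β replicate 2. HMGCS1, at 6458 bases, differed little, by -0.04 in LIG replicate 3 and 0.05 in TGF-β replicate 2. TGF-β replicate 2 was the highest of its group in 17 of the 21 SREBP2-driven members (81.0%), against 48.8% of all tested genes. LIG replicate 3 was the highest of its group in 10 of the 21 (47.6%), against 50.3%.

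**Figure D4:**
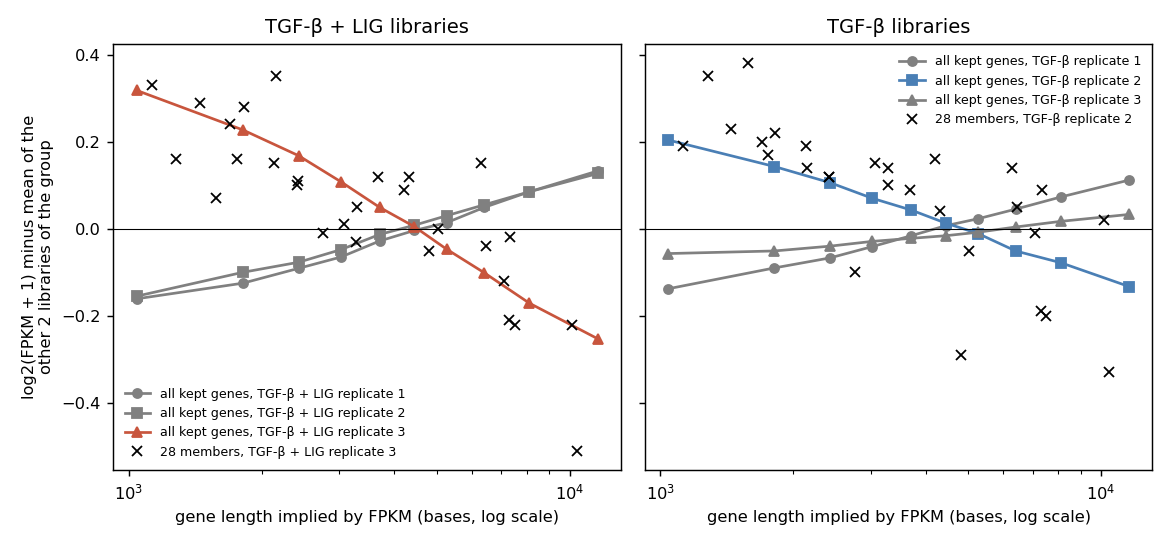
Difference of each library from the mean of the other 2 of its group, on the log2(FPKM + 1) scale, against gene length in bases (log axis), TGF-β + LIG left of TGF-β; lines join medians of 10 equal bins of all tested genes by length, and crosses are the 28 members in LIG replicate 3 and TGF-β replicate 2. In these 2 libraries short genes lie above 0 and long genes below, from 0.33 for EBP to -0.51 for ABCA1 in LIG replicate 3.

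With a trend on gene length removed from each library, an alternative chosen after seeing the data, 6 of the 21 SREBP2-driven members passed as lower, against 1.63% of all tested genes; 0 passed as higher, against 0.87%. The limma adjusted p was 0.00169 for HMGCS1, 0.00562 for SQLE, 0.0118 for MSMO1, 0.0264 for STARD4, 0.0388 for INSIG1 and 0.0392 for ACAT2. Their changes ran between -0.44 for HMGCS1 and -0.24 for ACAT2, MSMO1 and INSIG1, close to those without the correction. Without LIG replicate 3 and TGF-β replicate 2, 7 passed as lower, these 6 and LSS (adjusted p = 0.0374), against 2.69% of all tested genes; 0 passed as higher, against 1.95%. The libraries kept in that fit are the more alike ones of each group, so its spread is small by construction. ABCA1 and NR1H2 passed in neither fit.

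Among 81 further measured genes of sterol and isoprenoid biology in 5 lists, 25 of the 64 tested had a change below 0 and the median was 0.03, the median of all tested genes. CAV1, the cholesterol-binding coat protein of caveolae (chr7:116524785-116561184, plus strand), was the single one of the 64 that passed, and it fell; over all tested genes 0.505% passed as lower and 0.187% as higher. It was at 67.0, 67.4 and 66.9 FPKM with LIG, against 90.4, 93.8 and 85.6 FPKM with TGF-β. The LIG libraries were nearly equal and all were lower, 0.746 times the TGF-β level (log2 change -0.42 ± 0.06 SE, 95% interval -0.56 to -0.27, limma adjusted p = 0.0313). The call was lost without LIG replicate 1 (adjusted p = 0.161), LIG replicate 2 (0.197), TGF-β replicate 1 (0.214), TGF-β replicate 2 (0.123) or TGF-β replicate 3 (0.157), with no filter on low genes (0.0775), and under 1 other of the 20 alternatives, given with the dependence on processing. In none of the other 4 lists did a gene pass with limma; at an unadjusted p under 0.05 3 of their 48 tested genes were lower and 3 higher, against 4.21% and 4.2% of all tested genes, and limma voom called 0.

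In the isoprenoid side branches (16 tested), RABGGTA, a subunit of the Rab prenyltransferase, averaged 2.90 ± 0.292 FPKM with LIG and 2.37 ± 0.188 FPKM with TGF-β (log2 change 0.21, adjusted p = 0.518). Its LIG libraries were higher without overlap. In this list 2 of the 16 were higher without overlap and 0 lower, against 9.07% and 6.73% of all tested genes. In the machinery that moves and cuts SREBPs or degrades sterol-regulated proteins, 7 of the 16 tested had a change below 0 and 9 above. Over all tested genes 39.1% had a change below 0. Without overlap 3 of the 16 were lower and 3 higher, against 6.73% and 9.07% of all tested genes. The pair with the smallest adjusted p, SEC23A and SEC24D, coat proteins of vesicles leaving the endoplasmic reticulum, averaged 77.3 ± 7.65 and 42.3 ± 4.24 FPKM with LIG, against 90.1 ± 0.507 and 49.3 ± 1.49 FPKM with TGF-β, lower without overlap (adjusted p = 0.482 and 0.495). Among lipoprotein receptors and adaptors (8 tested), the receptor chaperone LRPAP1 averaged 7.12 ± 0.595 FPKM with LIG and 5.93 ± 0.276 FPKM with TGF-β (log2 change 0.23, adjusted p = 0.399), higher without overlap. The receptor LRP10 averaged 20.1 ± 0.816 FPKM with LIG and 18.2 ± 1.43 FPKM with TGF-β (log2 change 0.14, adjusted p = 0.712), also higher without overlap. In this list 2 of the 8 were higher without overlap and 0 lower, against 9.07% and 6.73% of all tested genes. Among LXR partners, LXR targets and oxysterol enzymes (8 tested), NCOA5, a nuclear receptor coactivator, averaged 20.7 ± 0.344 FPKM with LIG and 19.2 ± 1.10 FPKM with TGF-β (log2 change 0.11, adjusted p = 0.753). It was higher without overlap. In this list 1 of the 8 was higher without overlap and 1 lower, against 9.07% and 6.73% of all tested genes.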

How the data were processed

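Polyadenylated RNA of 6 LX-2 libraries, 3 per group by their titles, was sequenced. The authors deposited FPKM per gene; fastp, HISAT2 2.1.0, DESeq2 and the build GRCh38.p13 are named per the submitters' processing notes, with no roles, and the counting tool, annotation and strand setting are not given in the sources used here. Values were tested as log2(FPKM + 1), which understates changes of low genes, with limma 3.58.1 (R 4.3.3, trended variance, 2 group means) on genes with a mean of at least 1 FPKM. P-values were adjusted by Benjamini-Hochberg over all 10695, with a threshold of 0.05; an exact two-sided permutation test of 3 against 3 cannot go below 0.1. Whole fragments and gene lengths were recovered from the steps of the deposited FPKM values (tolerance 0.01), and 97.15% of genes had a whole implied length. The code was tested on simulated data. Members and lists were chosen with earlier results of these data known. Every member is accounted for; per-library values are given for members that passed and for up to 3 per role with the smallest adjusted p, and for a few others chosen after their values were seen. From the further lists, genes that passed and otherwise up to 2 per list are named; some items are not reported here. Exons of 12 members overlap a gene on the opposite strand (HMGCS1, STARD4, LSS, ACAT2 and MVK among them). Exons of 3 members, CYP51A1, TM7SF2 and NPC2, overlap a gene on the same strand. FDPS, CYP51A1 and HSD17B7 have numbered pseudogenes. The levels of all these members may hold reads of other genes. Promoters are from RefSeq (GRCh38.p14), where 26 of 30 members matched. Alternatives were other pseudocounts, filters, scalings, variance models, a replicate block and leaving out libraries.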

Additional observations from a re-analysis of the deposited data

How the results depend on the processing

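The median change of the SREBP2-driven members stayed between -0.19 and -0.13 under every alternative run. The counts of calls did not hold. Over all genes 74 passed; 14 passed with no filter on low values, 1891 with library quality weights, 497 without both LIG replicate 3 and TGF-β replicate 2, 267 with the length trend removed, and 11 to 93 when 1 library was left out. Of the SREBP2-driven members 1 passed; 0 passed with no filter, 2 with quantile normalization (HMGCS1 and SQLE), 16 with library quality weights (15 lower, and TM7SF2 higher), 7 without both libraries, 6 with the length trend removed, and 0 to 1 when 1 library was left out. With library quality weights 2 LXR-linked members passed (ABCA1 lower, NR1H2 higher) and 2 other members (INSIG2 lower, NPC1 higher), against 0 of each. The median of the LXR-linked members was -0.07, and 0.13 with a mean of at least 5 FPKM, which leaves NR1H2 alone.

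With the replicate number as a block 22 genes passed, 0 of them SREBP2-driven (HMGCS1 adjusted p = 0.2, CAV1 0.244). Deviations of same-numbered libraries correlated at 0.469, -0.574 and -0.337. The length trend of LIG replicate 3 and TGF-β replicate 2 enters these values, so they cannot decide whether the numbers mark pairs. The labels state no pairing, and the main fit used none. LIG replicate 3 correlated with TGF-β replicate 2 at 0.675, and both carry the length trend, so whether a number also marks a shared batch cannot be told apart from it.

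Some changes near 0 turned sign, and none of these genes passed in a fit that turned its sign. TM7SF2, which turned sign in 1 fit, passed as higher with library quality weights (log2 change 0.23, limma adjusted p = 0.0466). PMVK was -0.07 with quality weights and -0.01 with the length trend removed, and it ran from -0.08 (without TGF-β replicate 1) to 0.14 when 1 library was left out, with -0.03 without LIG replicate 1 and -0.02 without LIG replicate 3. HSD17B7 was 0.06 and NPC2 -0.02 with quality weights. Without LIG replicate 1 EBP was 0.03. Without LIG replicate 3 NSDHL was -0.02, SC5D 0.01 and NPC2 -0.06. Without TGF-β replicate 1 NPC2 was -0.02, without TGF-β replicate 2 EBP was 0.01, and without TGF-β replicate 3 TM7SF2 was -0.05 and NSDHL -0.01. Without both libraries SC5D was 0.01. Over the fits that left out 1 library, TM7SF2 ran from -0.05 to 0.18, NSDHL from -0.02 to 0.09, EBP from -0.16 to 0.03 and NPC2 from -0.06 to 0.11. The cause was not tested. ABCG1 and MYLIP were below the filter on mean FPKM and have no test. How much of the spread moves with the length trend was not tested.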
